A study of Mus musculus with 12 samples.

Results

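The genes examined here are huntingtin and its classical partners, the neurotrophin Bdnf with its receptors, and a pair of transcriptional regulators long studied in Huntington's disease. They were listed by name for their known roles, by a rule that uses no measured value, though with earlier results of these data known. There are 9 of them among the 29428 genes of the table: Htt, Hap1, Hip1, Bdnf, Ngfr, Ntrk2, Ntrk3, Rest and Ppargc1a. Of these, 6 passed the filter on low values and entered the test. Ngfr, Ntrk2 and Ntrk3 did not.

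Poly(A) RNA was sequenced from mouse striatal cell lines, STHdhQ7/Q7 (genotype labelled normal) and STHdhQ111/Q111, which carry 7 and 111 glutamines in huntingtin by name. Cells were left untreated (Q7-C and Q111-C) or were given 100 ng/mL murine interferon gamma (IFNγ) together with 5 µg/mL lipopolysaccharide (LPS) over 24 h, giving the treated groups Q7-T and Q111-T. Both lines are immortal, were grown at 33 °C and were used within 20 passages. Each of the 4 groups has 3 libraries. Each genotype is represented by 1 cell line, so the repeat length and any other difference between the lines cannot be told apart. IFNγ and LPS were always given together, so their effects cannot be told apart either. The study calls the libraries biological replicates, but the labels do not say that each came from its own culture. The p-values therefore measure the spread between these libraries, which may be technical.

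Huntingtin is a large scaffold protein whose glutamine repeat is expanded in Huntington's disease. Hap1 links it to the motors that carry vesicles along microtubules, and Hip1 links it to clathrin and actin during endocytosis. Huntingtin supports both the transcription of Bdnf and the transport of Bdnf vesicles, and striatal neurons depend on Bdnf that they receive mainly from the cortex. Bdnf acts through the TrkB receptor encoded by Ntrk2 and through p75NTR encoded by Ngfr, while the Ntrk3 product TrkC is the receptor for neurotrophin 3. Rest silences neuronal genes, Bdnf among them, and Ppargc1a encodes PGC-1α, a coactivator of mitochondrial and antioxidant genes.

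The deposited values are TPM, a level per transcript length that allows different genes to be set side by side, and estimated counts. The libraries hold between 57505990 and 96417834 estimated counts. Low counts showed an excess at multiples of 4, by a factor of 1.28 to 1.72 over neighbouring even numbers, and other low values occurred too. From this excess 1 read pair was assumed to stand for about 4 counts. Where no library of a group exceeded 12 counts (3 read pairs) for a gene, that group was taken as lacking detection. These limits cover counting error only. Q7-T replicate 2 stood apart: its median gene lay 0.62 below the average on the log2 TPM scale, its TMM scaling factor was 0.764 against 0.906 to 1.10 in the others, and its nearest library belonged to Q7-C. In Q7-C replicate 1 the median gene lay 0.37 below. On the same scale the median gene of Q111-C exceeded that of Q7-C by 0.27, and that of Q111-T exceeded that of Q7-T by 0.34. After TMM scaling these shifts were -0.02 and -0.03, and the edgeR fold changes below come from the TMM-scaled counts. The limma values below are on log2 TPM without this scaling. They therefore keep the shifts of 0.27 and 0.34 toward the STHdhQ111 groups. Neuronal identity as labelled was incomplete by markers, since Snap25, Syt1 and Dcx were at or near 0 in every group. Stmn2, Tubb3 and Map2 were detected, and all 8 mesenchymal markers were detected. These summed to 4440 to 5230 TPM in Q7-C, 3410 to 3930 TPM in Q7-T, 4320 to 4530 TPM in Q111-C and 1740 to 2080 TPM in Q111-T, and single ones differed in either direction, with mean levels in Q7-C against Q111-C of 1670 and 43.7 TPM for Acta2 and of 14.6 and 250 TPM for Col1a2. The summed level of the 6 neuron markers in the table was 94.3 to 104 TPM in Q7-C and 131 to 168 TPM in Q7-T, against 9.85 to 13.7 TPM in Q111-C and 31.0 to 34.9 TPM in Q111-T. Stmn2 and Tubb3 made up most of the sum in all groups except Q111-C, where Map2 was the largest. Map2 averaged 7.93, 2.13, 5.90 and 5.61 TPM in Q7-C, Q7-T, Q111-C and Q111-T. Medium spiny neuron markers summed to 0.29 to 0.903 TPM in Q7-C and 0.173 to 0.824 TPM in Q7-T, against 5.23 to 6.83 TPM in Q111-C and 2.40 to 2.64 TPM in Q111-T. The astrocyte list summed to 1.05 to 1.98 TPM in Q7-C and 1.33 to 1.85 TPM in Q7-T, against 9.01 to 11.1 TPM in Q111-C and 4.16 to 5.24 TPM in Q111-T, mostly from Slc1a3, while Aldh1l1 averaged 0.364 TPM in Q7-C against 0.0384 TPM in Q111-C. After treatment Aldh1l1 averaged 0.416 TPM in Q7-T against 1.32 TPM in Q111-T. Of the macrophage or microglia markers, 1 of 5 in the table passed the filter, Tmem119, and Ptprc was at or near 0 in every group. That list summed to 12 to 13.3 TPM in Q7-C, 3.07 to 3.49 TPM in Q7-T, 17.7 to 20.5 TPM in Q111-C and 5.00 to 5.80 TPM in Q111-T. The oligodendrocyte lineage list, mostly Cspg4, summed to 8.94 to 17.1, 2.67 to 5.75, 10.8 to 12.6 and 4.37 to 9.73 TPM in the same order of groups. The part of these marker differences in the results below was not tested. In bulk RNA, fewer cells expressing a gene and less RNA per cell cannot be told apart.

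A gene was called when edgeR's quasi-likelihood test gave a Benjamini-Hochberg adjusted p under 0.05 over all 16127 genes tested and the change was at least 2-fold. Between the untreated lines, 2 of the 6 tested members were called, Htt and Hap1, both lower in Q111-C. The background was 15.2% of all tested genes called, with 7.62% higher and 7.61% lower in Q111-C. Between the treated lines 3 of 6 were called, with Hap1 and Rest higher and Htt lower in Q111-T, against a background of 24.5% (13.3% higher, 11.2% lower). IFNγ/LPS gave no called member in STHdhQ7 cells, where 4.04% of all genes were called (2.93% higher, 1.11% lower). Of those 6, 1 member (Bdnf) had an unadjusted p under 0.05 there, and DESeq2 and limma also called 0. In STHdhQ111 cells 2 of 6 were called, Hap1 higher and Bdnf lower, against 11.2% of all genes (8.28% higher, 2.96% lower). The interaction, which tests whether the response differed between the lines, was called for the same pair of genes, against 4.71% of all genes. With 6 genes tested, these counts describe the members and are not a test of the set. The comparisons share their libraries and are not independent of each other.

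**Figure D1:**
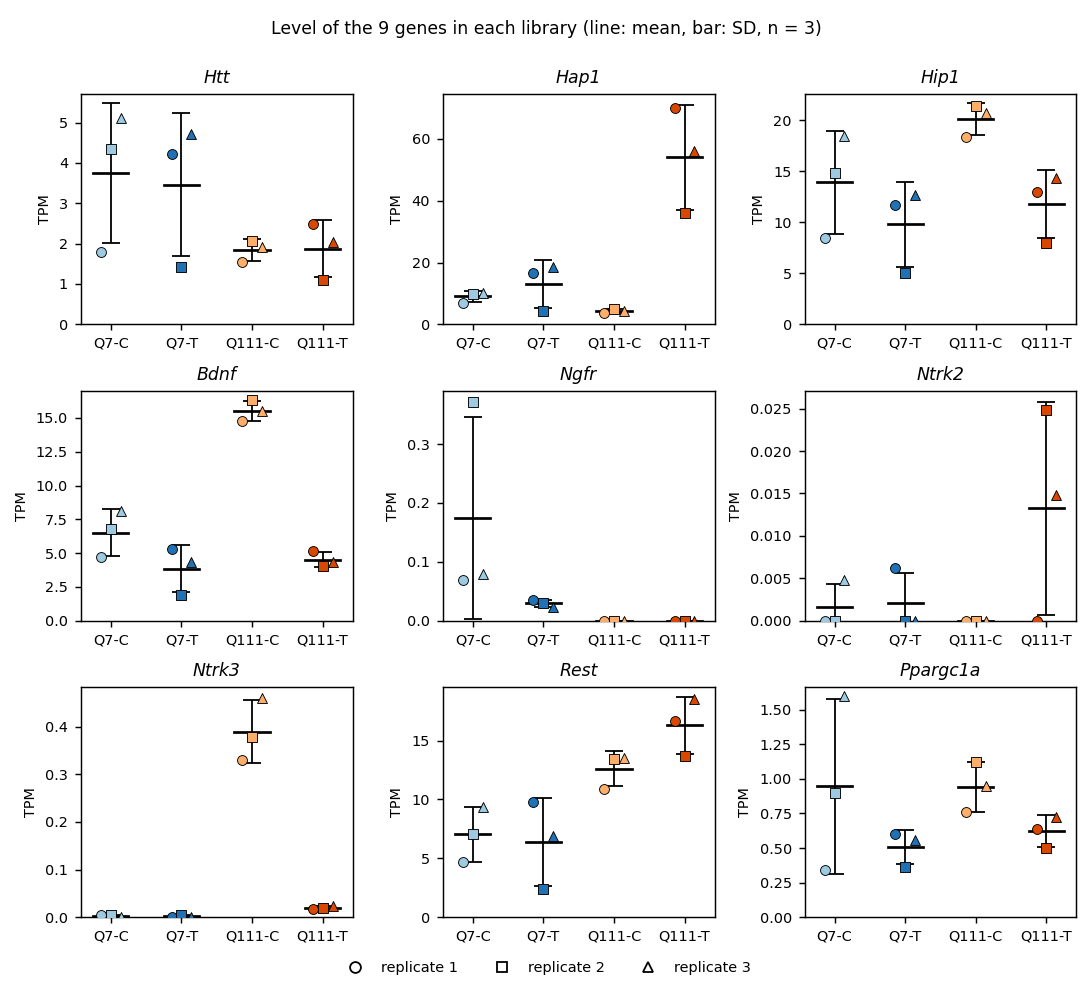
Level in TPM (vertical axis, linear from 0, scaled separately for each gene) of the 9 genes in each of the 4 groups. Points are single libraries with the replicate shown by shape, lines are means and bars are SD of 3 libraries. Hap1 lies between 36 and 69.9 TPM in Q111-T and at or below 18.4 TPM in every other library, while Ntrk3 is near 0 outside Q111-C.

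The Htt gene (ENSMUSG00000029104) lies on the plus strand at chr5:34761740-34912534 of GRCm38. Its glutamine repeat is coded in exon 1, and the stretch around it is shown because this is the feature that names the lines. It was read from the GENCODE M21 transcript at chr5:34761928-34762008 (plus strand, coding sequence), with the glutamine codons in capitals. This is the reference mouse sequence, not the alleles of the cells.
Htt: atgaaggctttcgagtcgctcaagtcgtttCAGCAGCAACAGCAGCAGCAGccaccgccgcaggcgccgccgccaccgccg
The reference tract holds 7 glutamine codons, 6 CAG and 1 CAA, at chr5:34761958-34761978 beginning at codon 18. The table gives one level for Htt over its whole length, so it does not show how long the repeat was in the transcripts.

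Hap1 and Bdnf were the members with a called interaction, that of Bdnf lost in most fits without 1 library, so their promoters are shown. Both are taken from the RefSeq promoter table (GRCm38.p6), cut to the 250 bases before the annotated start. Capitals mark the letters TTCNNNGAA, the general pattern of a gamma-activated site, an element of IFNγ-responsive promoters. The Hap1 stretch is chr11:100356129-100356378, minus strand, and the Bdnf stretch is chr2:109674450-109674699, plus strand.
Hap1: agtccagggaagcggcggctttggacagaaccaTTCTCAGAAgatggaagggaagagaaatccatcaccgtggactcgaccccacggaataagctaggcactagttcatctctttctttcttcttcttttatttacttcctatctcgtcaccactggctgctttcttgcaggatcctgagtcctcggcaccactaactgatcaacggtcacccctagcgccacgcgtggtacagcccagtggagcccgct
Bdnf: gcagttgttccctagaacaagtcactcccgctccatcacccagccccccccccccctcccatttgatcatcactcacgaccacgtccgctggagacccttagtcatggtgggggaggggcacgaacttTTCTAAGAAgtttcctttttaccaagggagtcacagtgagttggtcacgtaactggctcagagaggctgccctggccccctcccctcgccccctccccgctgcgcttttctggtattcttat
The match lies 217 to 209 bases before the start in Hap1 and 122 to 114 bases before it in Bdnf. Of the 9 members, 7 had windows in the promoter table, 15 windows of 250 bases before to 50 after a start. TTCNNNGAA occurred in 3 of the 15, both Hap1 windows, which overlap, and 1 of the 7 for Bdnf, and in 8.3% of all 32851 promoter windows. GAAA, then any 2 bases, then GAAA, the core of an interferon response element, occurred in 1 window, of Bdnf, on the opposite strand, and in 3.44% of all. TGACGTCA, the cAMP response element, occurred in 1 window, of Htt, 14 to 7 bases before the start, and in 1.79% of all. Both strands were searched. These are matches of letters and not measured binding.

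Htt was lower in STHdhQ111 than in STHdhQ7 cells with and without treatment, and IFNγ/LPS did not move it detectably in either line. In Q7-C the 3 libraries held 1.79, 4.34 and 5.11 TPM. In Q7-T they held 4.23, 1.43 and 4.71 TPM. Q7-C replicate 1 and Q7-T replicate 2, the libraries with the lowest median gene, were the low ones, and the rest lay above 4 TPM. In Q111-C the values were 1.54, 2.07 and 1.91 TPM, and in Q111-T 2.48, 1.10 and 2.04 TPM. On the TPM scale the lines therefore overlapped. In TMM-scaled CPM they did not: the untreated values were 30.1, 53.7 and 61.0 in Q7-C and 17.1, 22 and 20.6 in Q111-C. The treated ones were 54.0, 30.8 and 63.5 in Q7-T and 27.3, 14.4 and 22.2 in Q111-T. The log2 fold change was -1.28 (SE 0.33, edgeR adjusted p = 0.0153) in Q111-C vs. Q7-C, a 2.43-fold lower level. Between the treated lines it was -1.21 (SE 0.33, edgeR adjusted p = 0.0133), or 2.32-fold lower. With treatment Htt changed by 0.04 (SE 0.33) in STHdhQ7 and by 0.10 (SE 0.33) in STHdhQ111 cells on the log2 scale, with adjusted p = 0.976 and 0.90.

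The Htt call held under DESeq2 size factors but was lost by limma and without some single libraries. By limma on log2(TPM + 0.5) the untreated difference was -0.77 (adjusted p = 0.239) and the treated one -0.66 (adjusted p = 0.251). The untreated call was lost without Q111-C replicate 1 (adjusted p = 0.0728), Q111-C replicate 3 (0.0558), Q7-C replicate 2 (0.0567) or Q7-C replicate 3 (0.0655). The treated one was lost without Q111-T replicate 2 (-0.99, adjusted p = 0.0521) and fell just under 2-fold without Q7-T replicate 3 (-0.995, adjusted p = 0.0492). With Q7-C replicate 1 and Q7-T replicate 2 both left out, the differences were -1.53 (adjusted p = 0.000437) and -1.43 (adjusted p = 0.000486). The 3 tested genes closest to Htt in their pattern over the 12 libraries, by the root-mean-square difference of centred log2(TPM + 0.5), were Gabbr1 (0.114), a subunit of the GABA-B receptor, Plxnb1 (0.146), a semaphorin receptor, and Lpin2 (0.176), a phosphatidate phosphatase. Htt overlaps Msantd1 on the same strand at its distal end, so reads there could be shared.

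Hap1 showed the largest change of the 9 genes with treatment among those tested. It lies on the minus strand at chr11:100347327-100356128 (ENSMUSG00000006930) and contains the smaller same-strand gene model Gm20394. The libraries held 6.88, 9.94 and 10.2 TPM in Q7-C and 3.67, 4.93 and 4.40 TPM in Q111-C. These did not overlap, and the log2 fold change in Q111-C vs. Q7-C was -1.36 (SE 0.31, 2.56-fold lower, edgeR adjusted p = 0.00801). After treatment Q111-T held 69.9, 36 and 56.2 TPM, above every other library. The change from Q111-C was 3.72 on the log2 scale (SE 0.34, edgeR adjusted p = 1.47e-05), a 13.2-fold rise. Q7-T held 16.5, 4.23 and 18.4 TPM, so replicates 1 and 3 lay above the Q7-C libraries and replicate 2 below them. The change in STHdhQ7 cells was 0.61 (SE 0.31, adjusted p = 0.382). Without Q7-T replicate 2 it was 0.94 (adjusted p = 0.0124), still under 2-fold.

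The order of the lines in Hap1 was thus opposite before and after treatment. In Q111-T vs. Q7-T the log2 fold change was 1.75 (SE 0.31, edgeR adjusted p = 0.00119), against -1.36 between the untreated lines. The difference between the responses was 3.10 on the log2 scale (SE 0.44, edgeR adjusted p = 0.00214), an 8.60-fold larger ratio in STHdhQ111 cells. It ranged from 2.77 to 3.38 over the 12 fits that each left out 1 library and was called in all 12. It was also called in all 12 other alternatives. Leaving out the 2 Q7 libraries with low medians gave 2.85 (adjusted p = 0.000148). The lower level in Q111-C was called in 12 of 12 such fits as well but not by limma on log2(TPM + 0.5), which gave -0.96 (adjusted p = 0.166). The genes closest to Hap1 in pattern were Inka2 (0.339), a kinase inhibitor, Cdkn1a (0.366), the p21 cell cycle inhibitor, and Rnd1 (0.374), a small GTPase. In Q111-T their mean levels were 39.6, 672 and 280 TPM, against 3.96, 57.6 and 29.5 TPM in Q111-C.

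Hip1, the clathrin adaptor at chr5:135406531-135545115 (minus strand, ENSMUSG00000039959), was among the most abundant of these genes. It held 8.48, 14.8 and 18.5 TPM in Q7-C, 11.7, 5.05 and 12.7 TPM in Q7-T, 18.4, 21.4 and 20.7 TPM in Q111-C and 13.0, 8.02 and 14.4 TPM in Q111-T. The Q111-T libraries all lay below those of Q111-C. The log2 fold change was -0.69 (SE 0.22, edgeR adjusted p = 0.0461), a change under 2-fold. That adjusted p rose above 0.05 in 8 of the 12 fits without 1 library, up to 0.166 without Q111-T replicate 2. The lines did not differ detectably in Hip1, by 0.26 (SE 0.22, adjusted p = 0.463) untreated and by -0.08 (SE 0.22, adjusted p = 0.79) treated.

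**Figure D2:**
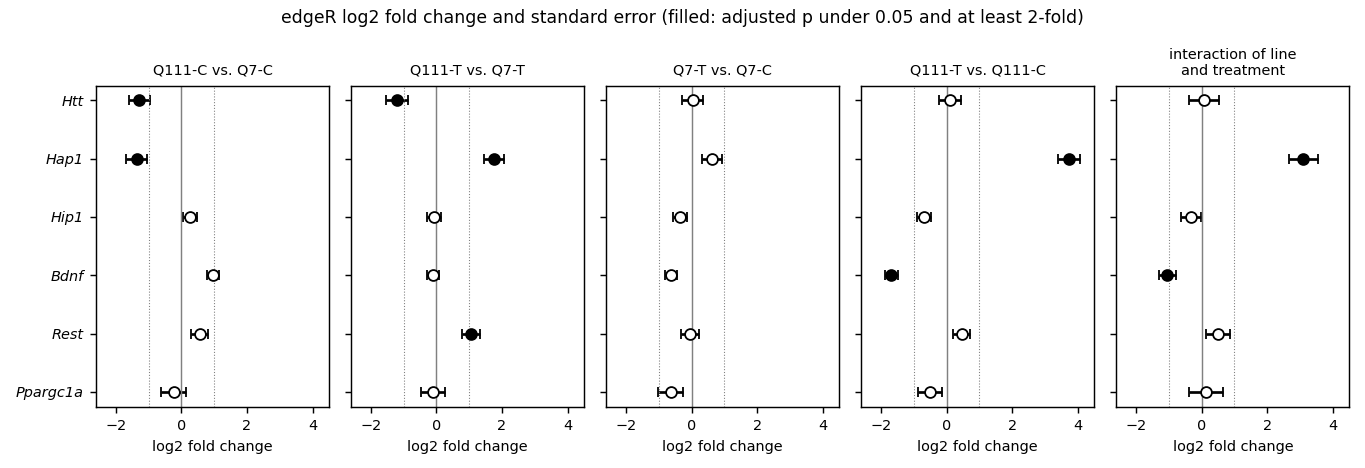
Log2 fold change from edgeR (horizontal axis, first-named group minus the second) for the 6 tested members in the 4 pairwise comparisons and the interaction. Bars are standard errors, filled points passed both thresholds and dotted lines mark 2-fold. Hap1 lies at -1.36 between untreated lines and at 1.75 between treated ones, and no point is filled in Q7-T vs. Q7-C.

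Other genes whose products bind or traffic with huntingtin were taken as a list of 22, of which 21 were tested. Only Kif5c, a kinesin heavy chain, was called between the untreated lines, and it was lower in Q111-C (0.286 ± 0.176 TPM, SD, n = 3) than in Q7-C (4.94 ± 2.11 TPM). Its log2 fold change was -4.36 untreated and -2.92 treated (edgeR adjusted p = 7.05e-05 and 0.000568). Between the treated lines 1 gene was higher and 2 were lower: the autophagy receptor Optn by 1.09 (adjusted p = 0.000591), Kif5c, and Trip10, an F-BAR protein, at -1.29 (adjusted p = 0.000266). By limma 1 was higher and 1 lower. The median of the list by edgeR was 0.32, against -0.03 for all tested genes. IFNγ/LPS raised 1 gene of the list in each line, Pacsin1, a synaptic dynamin-binding protein, by 3.82 in STHdhQ7 (adjusted p = 0.00617) and by 3.78 in STHdhQ111 cells (adjusted p = 0.00232). Its levels stayed low, at 0.656 ± 0.102 TPM in Q7-T and 1.13 ± 0.386 TPM in Q111-T. For comparison, edgeR called 15.2% of all tested genes between the untreated and 24.5% between the treated lines. With treatment it called 4.04% of them in STHdhQ7 and 11.2% in STHdhQ111 cells.

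Bdnf was higher in untreated STHdhQ111 than in untreated STHdhQ7 cells, and after treatment no difference between the lines was detected. The gene lies on the plus strand at chr2:109674700-109727007 (ENSMUSG00000048482) and overlaps Gm45346 on the opposite strand at its 5′ end. The libraries were prepared with strand information. They held 4.69, 6.75 and 8.14 TPM in Q7-C and 14.8, 16.3 and 15.5 TPM in Q111-C. These ranges were far apart, with a log2 fold change of 0.96 (SE 0.19, edgeR adjusted p = 0.00272), which at 1.94-fold fell short of the fold threshold. It passed both thresholds without Q111-C replicate 1 (1.01, adjusted p = 0.00859), without Q7-C replicate 3 (1.08, adjusted p = 0.00517) and by limma on log2(TPM + 0.5) (1.22, adjusted p = 0.0142). After treatment the values were 5.31, 1.90 and 4.34 TPM in Q7-T and 5.15, 4.04 and 4.38 TPM in Q111-T. These overlapped, with a difference of -0.09 (SE 0.18, adjusted p = 0.72).

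The fall with treatment was called in STHdhQ111 cells only. There Bdnf fell by 1.68 on the log2 scale (log2 fold change -1.68, SE 0.19, edgeR adjusted p = 7.33e-05), a 3.20-fold lower level, and it was called in every fit without 1 library. In STHdhQ7 cells the log2 fold change was -0.63 (SE 0.18, edgeR adjusted p = 0.0849). The adjusted p was 0.0386 without Q7-T replicate 1 and 0.00959 by DESeq2 on all 12 libraries, both with a change under 2-fold. By DESeq2 on the 2 groups alone it was 0.266, and by limma on log2(TPM + 0.5) 0.296. The 3 Q7-T libraries lay at 10.4 to 17.3 TMM-scaled CPM, below the 20.0 to 24.7 of Q7-C. The difference between the responses was -1.05 (SE 0.26, edgeR adjusted p = 0.0379). This call was not stable, as it was kept in only 2 of the 12 fits without 1 library, those without Q7-C replicate 3 and Q7-T replicate 2. Without the latter it was -1.24 (adjusted p = 0.00302). Its adjusted p in the other 10 ran from 0.0577 without Q7-C replicate 1 to 0.0979 without Q111-T replicate 3, and limma on log2(TPM + 0.5) gave -0.93 (adjusted p = 0.299). The call was also lost with the replicate number as a block in edgeR (-1.04, adjusted p = 0.0749). Closest to Bdnf in pattern were Sdc2 (0.125), a heparan sulfate proteoglycan, Sertad4 (0.163) and Acadm (0.184), the medium-chain acyl-CoA dehydrogenase. Sdc2 averaged 119, 60.9, 238 and 73.2 TPM in Q7-C, Q7-T, Q111-C and Q111-T.

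The receptors were scarce. Ntrk2, the gene of the Bdnf receptor (chr13:58806569-59133970, plus strand, ENSMUSG00000055254), had 0, 0 and 4 estimated counts in Q7-C, 4, 0 and 0 in Q7-T, 0 in all 3 libraries of Q111-C and 0, 16 and 8 in Q111-T. It was at or under the limit of 12 counts in 11 of 12 libraries, and a difference was not detectable at this depth. Ngfr, the gene of p75NTR (chr11:95568818-95587735, minus strand, ENSMUSG00000000120), had 10, 48 and 12 counts in Q7-C, 4 in each library of Q7-T and 0 in all 6 STHdhQ111 libraries. Its mean in Q7-C was at least 2.10-fold higher than the limit in Q111-C, a value carried by Q7-C replicate 2. Only that library exceeded the limit, and both treated groups were at or under it in every library. Without the filter on low values, edgeR gave Ngfr in Q111-C vs. Q7-C an adjusted p of 0.0139, with 8.51% of all 29428 genes called, and this value rests on the counts of Q7-C just given. The same fit gave Q111-T vs. Q7-T an adjusted p of 0.0432, which is not read as a difference because neither group exceeded the limit.

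Ntrk3, the TrkC gene (chr7:78175959-78738012, minus strand, ENSMUSG00000059146), was detected only in STHdhQ111 cells. It had 313, 401 and 533 estimated counts in Q111-C, or 0.33, 0.378 and 0.46 TPM, just under the filter of 0.5 TPM in 3 libraries. After treatment it had 18, 21 and 20 counts in Q111-T. In STHdhQ7 cells it had 4, 4 and 0 counts untreated and 0, 6 and 0 treated, at or under the limit. The level in Q111-C was at least 30.5-fold higher than the limit in Q7-C, and that in Q111-T at least 1.48-fold higher than the limit in Q7-T. Between Q111-C and Q111-T the ratio of means was 17.7 ± 4.68 (propagated SD) in TMM-scaled CPM, from 5.23 ± 0.831 to 0.295 ± 0.0622 (SD, n = 3). Without the filter, edgeR gave Q111-C vs. Q7-C an adjusted p of 0.000994 and Q111-T vs. Q111-C an adjusted p of 0.0144, with 5.96% of all genes called in the latter. In the same fit Q111-T vs. Q7-T (adjusted p = 0.0763, with 13.5% of all genes called) and the interaction (adjusted p = 0.286) were not called. Both Ntrk2 and Ntrk3 span 4 smaller gene models each, on either strand.

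The wider neurotrophin pathway was taken as 27 ligands, processing enzymes, receptors and adaptors, of which 21 were tested. Between the untreated lines 1 was called higher in Q111-C and 4 lower, against 7.62% and 7.61% of all tested genes. The signalling adaptor Shc2 was higher by 3.51 (adjusted p = 0.000351). The sorting receptor Sorl1 stood at -4.41 (adjusted p = 9.81e-06) and the p75NTR coreceptor Lingo1 at -2.98 (adjusted p = 0.000254). Between the treated lines 5 were higher and 6 lower in Q111-T, against 13.3% and 11.2% of all tested genes. By limma on log2(TPM + 0.5) the counts were 3 higher and 4 lower untreated, and 5 higher and 1 lower treated. Plat, the tissue plasminogen activator that starts the cleavage of proBDNF through plasmin, was at 152 ± 13.7 TPM, against 13.7 ± 8.07 TPM in Q7-T (log2 fold change 3.20, adjusted p = 1.48e-05). The ligand gene Ntf5, for neurotrophin 4, was higher by 2.40 (adjusted p = 0.0211) and Shc2 by 2.67 (adjusted p = 0.00122).

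In STHdhQ7 cells treatment changed 1 of the 21, Sorcs2, a sortilin family receptor, at -1.03 (adjusted p = 0.013), while limma called 0. In STHdhQ111 cells 4 rose and 2 fell, against 5 called in all with the replicate block, and 3 higher and 2 lower by limma. Sorcs2 stood at -1.79 (adjusted p = 0.000131) and Plat rose by 1.82 (adjusted p = 0.000937). By edgeR 4.04% of all tested genes were called with treatment in STHdhQ7 and 11.2% in STHdhQ111 cells. All log2 fold changes and adjusted p-values here are from edgeR.

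Rest was called higher in STHdhQ111 than in STHdhQ7 cells after treatment, a call that rested on Q7-T replicate 2, and was not called between the untreated lines. The gene lies on the plus strand at chr5:77265491-77286432 (ENSMUSG00000029249) and holds the small RNA gene Mir5098. The libraries held 4.66, 7.06 and 9.36 TPM in Q7-C and 9.81, 2.39 and 6.89 TPM in Q7-T. They held 10.9, 13.4 and 13.5 TPM in Q111-C and 16.7, 13.7 and 18.5 TPM in Q111-T. On the TPM scale every STHdhQ111 library was above every STHdhQ7 library, and the Q111-T libraries were above those of Q111-C. In TMM-scaled CPM Q7-T replicate 1 (37.0) was above Q111-C replicate 1 (35.8). The log2 fold change between the lines was 0.56 untreated (SE 0.27, edgeR adjusted p = 0.167) and 1.06 treated (SE 0.27, edgeR adjusted p = 0.00896). The treated difference fell under 2-fold without Q7-T replicate 2, at 0.79 (adjusted p = 0.00714), and was between 1.03 and 1.38 without any other single library. Treatment changed it by -0.04 (SE 0.27, adjusted p = 0.967) in STHdhQ7 and by 0.46 (SE 0.27, adjusted p = 0.285) in STHdhQ111 cells. The interaction was 0.50 (SE 0.37, adjusted p = 0.505). The genes closest in pattern were Ptbp3 (0.105), an RNA-binding splicing regulator, Ccdc82 (0.106) and Zbtb41 (0.121).

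The corepressors and regulators of Rest were taken as a list of 19 genes, and all were tested. The list entry Rilp encodes a lysosomal protein rather than a known Rest regulator, and edgeR did not call it in any comparison. Prickle1, which binds Rest and takes part in its nuclear transport, was the only one called between the untreated lines, higher by 2.24 (edgeR adjusted p = 0.000399), from 0.34 ± 0.0506 TPM in Q7-C to 2.02 ± 0.304 TPM in Q111-C. Between the treated lines 1 was higher and 2 lower, with Prickle1 at 2.00 (adjusted p = 0.000652) and the histone methyltransferase Ehmt2 at -1.28 (adjusted p = 0.000448). By limma 2 were higher and 0 lower in each comparison of the lines. By edgeR 0 were called with treatment in either line, and DESeq2 and limma also called 0. At an unadjusted p under 0.05, 3 were lower in STHdhQ7 and 7 lower in STHdhQ111 cells, with 0 higher in both. The shares of all tested genes called by edgeR were 15.2% between the untreated and 24.5% between the treated lines. With treatment these shares were 4.04% in STHdhQ7 and 11.2% in STHdhQ111 cells.

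Of 20 neuronal genes known as Rest targets, 16 were in the table and 8 were tested. Between the untreated lines edgeR called 7.61% of all tested genes lower in Q111-C. Of the 8, 4 were called lower by edgeR and by DESeq2 and 3 by limma. None of these tools called any higher, and edgeR gave 0 higher at an unadjusted p under 0.05. Stmn2, a microtubule regulator of growth cones, was at 2.00 ± 0.791 TPM in Q111-C and 73.5 ± 4.86 TPM in Q7-C (log2 fold change -5.53, edgeR adjusted p = 6.77e-07). The synaptic vesicle gene Syn1 stood at -3.55 (adjusted p = 5.72e-05) and the neuronal tubulin Tubb3 at -2.46 (adjusted p = 2.98e-05). The fourth was L1cam, a neural adhesion molecule, at -1.36 (adjusted p = 0.00461). Between the treated lines 5 of 8 were lower and 0 were called higher by edgeR, against 11.2% and 13.3% of all tested genes. There 2 had an unadjusted p under 0.05 in the higher direction, DESeq2 called 5 lower and 0 higher, and limma 3 lower and 1 higher. The list median was -1.05 untreated and -1.32 treated, against -0.02 and -0.03 for all tested genes. Stmn2 and Tubb3 are also in the neuron marker list, so these counts and those marker sums share genes. The list did not move as one: Scn2a, a sodium channel gene that did not pass the filter, was higher in Q111-C (0.573 ± 0.0744 TPM) than in Q7-C (0.0127 ± 0.0128 TPM), chosen for mention after its values were seen. With treatment 1 of the 8 rose and 1 fell in each line by edgeR, and by limma 1 rose and 0 fell. Of all tested genes edgeR called 2.93% higher and 1.11% lower in STHdhQ7, and 8.28% and 2.96% in STHdhQ111 cells. Tubb3 rose by 2.29 (adjusted p = 0.000116) in STHdhQ7 and by 2.77 (adjusted p = 1.53e-05) in STHdhQ111 cells, and L1cam stood at -1.19 (adjusted p = 0.0319) and -1.31 (adjusted p = 0.00731).

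Ppargc1a was low, and no comparison called it. The gene lies on the minus strand at chr5:51454250-51567704 (ENSMUSG00000029167). The libraries held 0.339, 0.897 and 1.6 TPM in Q7-C and 0.599, 0.365 and 0.559 TPM in Q7-T. They held 0.758, 1.12 and 0.947 TPM in Q111-C and 0.641, 0.497 and 0.726 TPM in Q111-T. The untreated STHdhQ7 libraries spanned the widest range and overlapped the other 3 groups, while Q111-T lay wholly below Q111-C. The log2 fold change was -0.24 (SE 0.37, adjusted p = 0.712) in Q111-C vs. Q7-C and -0.10 (SE 0.38, adjusted p = 0.845) between the treated lines. With treatment it was -0.64 (SE 0.38, adjusted p = 0.492) in STHdhQ7 and -0.50 (SE 0.38, adjusted p = 0.439) in STHdhQ111 cells, all by edgeR.

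Partners and targets of PGC-1α were a list of 30 genes, of which 27 were tested. Between the untreated lines 3 were higher and 2 lower in Q111-C by edgeR, against 5 higher and 0 lower by limma on log2(TPM + 0.5). The shares of all tested genes called there by edgeR were 7.62% higher and 7.61% lower. Pparg, the nuclear receptor PPARγ, was higher by 1.55 (adjusted p = 0.000134), at 48.1 ± 1.83 against 13.1 ± 1.10 TPM. Ppargc1b, the related coactivator, stood at -1.54 (adjusted p = 0.0222) and Prkaa2, a catalytic subunit of AMP-activated kinase, at -1.69 (adjusted p = 0.013). Between the treated lines edgeR called 13.3% of all tested genes higher and 11.2% lower. In this list 4 were higher and 3 lower by edgeR, against 5 higher and 0 lower by limma. Among those called by edgeR were catalase (Cat, 1.43, adjusted p = 9.27e-05), the mitochondrial carrier Ucp2 (1.36, adjusted p = 0.00366) and Ppargc1b (-1.90, adjusted p = 0.0057). In STHdhQ7 cells treatment raised 1 and lowered 1, and in STHdhQ111 cells it raised 4 and lowered 2, or 2 and 2 by limma. By edgeR it raised 2.93% and lowered 1.11% of all tested genes in STHdhQ7, and 8.28% and 2.96% in STHdhQ111 cells. Sod2, the mitochondrial superoxide dismutase, rose by 2.24 in STHdhQ7 (adjusted p = 3.07e-05) and by 3.40 in STHdhQ111 cells (adjusted p = 9.92e-07), reaching 78.5 ± 7.98 TPM in Q111-T. Pparg stood at -1.18 (adjusted p = 0.00302) and -2.08 (adjusted p = 1.95e-05), and Prkaa2 rose by 1.91 in STHdhQ111 cells (adjusted p = 0.00829). The fold changes and adjusted p-values of this list are from edgeR.

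**Figure D3:**
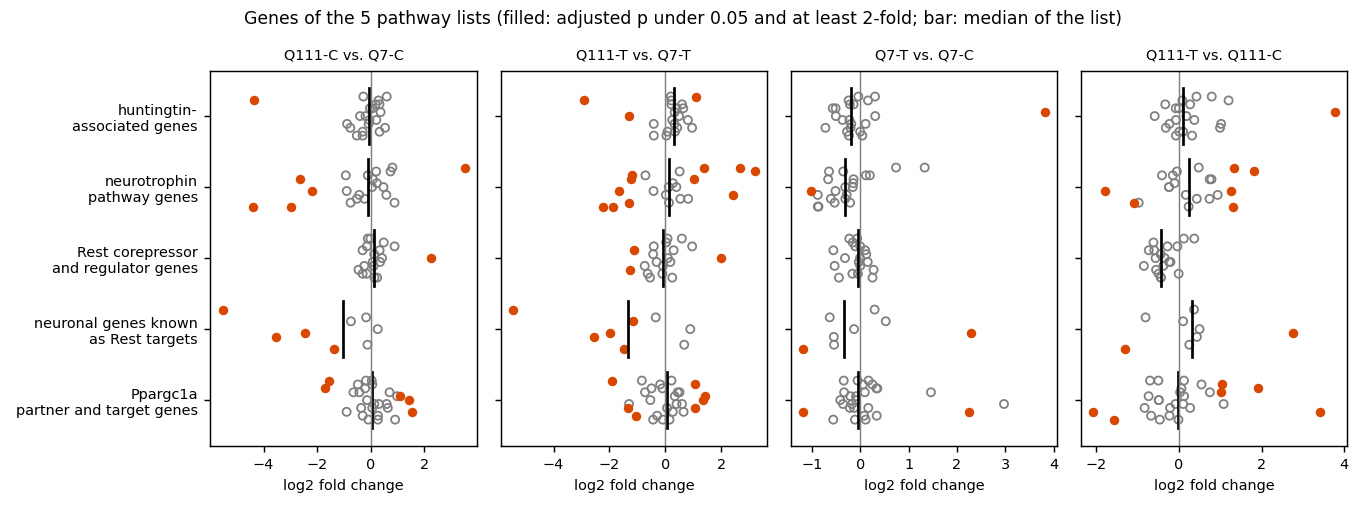
Log2 fold change from edgeR (horizontal axis, first-named group minus the second) of each tested gene of the 5 pathway lists in the 4 pairwise comparisons. Filled points passed both thresholds and the bar is the median of the list. The tested Rest targets have a median of -1.05 in Q111-C vs. Q7-C and -1.32 in Q111-T vs. Q7-T, and the other list medians lie between -0.44 and 0.32.

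Set side by side in TPM, the order of the 9 genes differed between the groups. In Q7-C it ran from Hip1 (14 ± 5.09) through Hap1 (9.01 ± 1.84), Rest (7.03 ± 2.35), Bdnf (6.53 ± 1.74) and Htt (3.75 ± 1.74) to Ppargc1a (0.946 ± 0.634), and neighbours down to Htt overlapped. In Q111-C it ran from Hip1 (20.2 ± 1.55) through Bdnf (15.5 ± 0.729), Rest (12.6 ± 1.45), Hap1 (4.33 ± 0.636), Htt (1.84 ± 0.269) and Ppargc1a (0.941 ± 0.18) to Ntrk3 (0.389 ± 0.0657), with no overlap between neighbours. In Q7-T Hap1 (13.0 ± 7.70) came first and overlapped Hip1 (9.80 ± 4.14), Hip1 overlapped Rest (6.36 ± 3.74), Rest overlapped Bdnf (3.85 ± 1.76) and Bdnf overlapped Htt (3.46 ± 1.77). In Q111-T Hap1 (54.1 ± 17.1) stood clear of Rest (16.3 ± 2.43), which overlapped Hip1 (11.8 ± 3.37), followed without overlap by Bdnf (4.52 ± 0.567), Htt (1.87 ± 0.706) and Ppargc1a (0.621 ± 0.116). All are mean ± SD of 3 libraries.

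Groups of 3 libraries that did not overlap in TMM-scaled CPM were common among all genes, so this alone says little of a member. It held for 4 of the 6 tested members in Q111-C vs. Q7-C (background 48.0%), 3 between the treated lines (48.7%), 1 with treatment in STHdhQ7 (16.0%) and 5 with treatment in STHdhQ111 cells (49.7%). A two-sided exact permutation test on TPM cannot give a p under 0.10 with 3 libraries against 3. It gave 0.10 for Hap1 in all comparisons except Q7-T vs. Q7-C (0.40), and 0.30 for Htt in both comparisons of the lines.

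**Figure D4:**
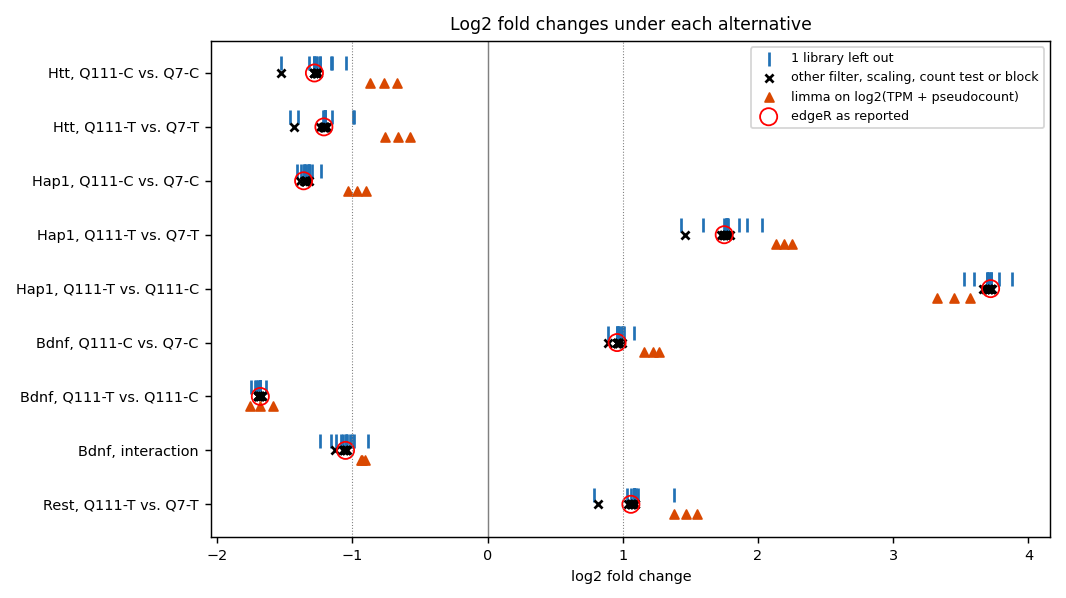
Log2 fold change (horizontal axis) of 9 of the member differences with an adjusted p under 0.05, as reported by edgeR (red circle), without each single library (blue bars), under other filters, scalings, count tests, the block or without the low-median Q7 libraries (crosses) and by limma on TPM (triangles). Dotted lines mark 2-fold. The Hap1 rise in STHdhQ111 cells lies between 3.32 and 3.88 throughout, while the Htt values by limma lie inside the 2-fold line.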

How the data were processed

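Poly(A) RNA of 12 libraries was sequenced from both ends with a stranded protocol. Per the labels and the study's methods, the authors trimmed reads with cutadapt, checked them with FastQC, mapped them with HISAT2 to GRCm38 and estimated expression with StringTie. The authors deposited 1 table of TPM values per gene and library and of estimated counts, not normalized. No column was left without a sample.

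The estimated counts were rounded and tested with edgeR 4.0.16 (R 4.3.3): TMM scaling, a minimum of 0.5 TPM in 3 or more libraries, all 12 libraries in one quasi-likelihood fit with a mean per group and 8 residual degrees of freedom. Adjusted p-values (Benjamini-Hochberg) run over all 16127 genes tested, and standard errors come from the F statistic. TMM-scaled CPM are counts over the effective library size. TPM values were compared by mean ± SD and exact permutation tests. DESeq2 1.42.0, limma 3.58.1 with pseudocounts of 0.5, 0.1 and 1, other filters and scalings, counts divided by 4, the replicate number as a block and each library left out were alternatives. The fit was tested on simulated data with 200 changed genes. It called 147 of them in the right direction in Q111-T vs. Q7-T, 154 in Q111-T vs. Q111-C and 85 for the interaction. No pair of libraries from the same group agreed within sampling noise (chi-square per degree of freedom of the estimated counts at least 19.9). At the assumed 4 counts per read pair, sampling noise alone would give about 4.

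The members and the lists were chosen with earlier results of these data known. Named are all 9 members; from each list and pairwise comparison up to 3 called genes with the largest change whose groups do not overlap in TPM; and, for each member called between 2 groups, the 3 genes of most similar pattern. 1 gene that this rule names is not reported here. L1cam in the comparison of the untreated lines and Scn2a were named in addition. The genes Sorcs3, Chga, Gria2, Oprm1 and Drd3 of the lists are not analysed here. Promoters were read from the RefSeq table by symbol, and Rest and Ntrk3 had no entry.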

Additional observations from a re-analysis of the deposited data

Results flagged for a closer look

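The interaction term of the edgeR fit, a difference between the lines in their response to IFNγ/LPS, was called for Hap1 and Bdnf. For Hap1 the response in STHdhQ111 minus that in STHdhQ7 cells was 3.10 on the log2 scale (SE 0.44, adjusted p = 0.00214), with all 3 Q111-T libraries above all Q111-C libraries and 2 of 3 Q7-T libraries above all Q7-C libraries. For Bdnf it was -1.05 (SE 0.26, adjusted p = 0.0379), a call kept in 2 of 12 fits without 1 library and lost with the replicate block (adjusted p = 0.0749), with all 3 treated libraries below the untreated ones in each line on the scale of TMM-scaled CPM.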

How the results depend on the processing

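Of 767 log2 fold changes of members under the alternatives, 729 stayed on their side of the thresholds, 33 lost a call, 5 gained one and 0 of the called ones changed sign. Among the 729, 37 uncalled values had the other sign. Members called in Q111-C vs. Q7-C numbered 2, and 4 with no filter on low values (Ngfr and Ntrk3 added), 1 by limma with each of the 3 pseudocounts (Bdnf in place of Htt and Hap1) and 1 to 2 without single libraries. With filterByExpr this count was 3 (Ntrk3 added), with and without the replicate block. Between the treated lines the count was 3, and 4 with no filter, where Ngfr was added with both groups at or under the detection limit. It was 2 by limma with each pseudocount (Hap1 and Rest) and 2 to 3 without single libraries. With both low-median Q7 libraries left out it was 2 (Hap1 and Htt). With treatment in STHdhQ111 cells the count was 2, and 3 with no filter and with filterByExpr (Ntrk3 added). For the interaction the count was 2, and 1 (Hap1) with no filter, by limma with each pseudocount, with the replicate block and with filterByExpr and the replicate block together, and 1 to 2 without single libraries. The same-numbered libraries share only a number: of 18 same-numbered pairs, 6 had a correlation of deviations over 0.1, with a range of -0.416 to 0.303. With the replicate block the interaction of Bdnf was -1.04 (adjusted p = 0.0749), and no other call on a member changed. The alternatives with filterByExpr and without Q7-C replicate 1 and Q7-T replicate 2 together were chosen after seeing the data; with both libraries left out, the Rest difference between the treated lines fell to 0.82 (adjusted p = 0.00173), under 2-fold. The causes of these shifts were not tested. Depth limits Ngfr and Ntrk2, which were at or under 12 estimated counts in most libraries.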
